A study of Mus musculus with 6 samples.

Results

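In B16 cells, a mouse melanoma line, 419 of 6512 p300 peaks (6.43%, exact 95% binomial interval 5.85 to 7.06%) lay between protein-coding genes and shared no base with a peak of H3K4me3. The peaks were selected on measured values, namely the position of each p300 peak relative to the H3K4me3 peaks of the same line, together with a distance of more than 1 kb from the span of every RefSeq protein-coding gene. They came from chromosomes 1 to 19, X and Y. Both lists were made by CUT&Tag in unedited wild-type B16 cells, with 1 library for H3K4me3 and 1 for p300. In CUT&Tag an antibody directs a transposase to chromatin, where it cuts and tags the DNA. All groups of the series share the B16 background. Another 4 libraries targeted H3K9me3, 1 of them wild type and the others with titles that name a knockout of Tdg, of Trp53 or of both genes, and were not analysed here. The genotype field of the labels gives wild type for all 6 libraries, also where the title names a knockout. The labels name no clone, passage or control antibody. With 1 library for each antibody, the values below have no replicate check and no test between conditions was possible.

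p300, encoded by Ep300, is an acetyltransferase that transcription factors recruit to DNA, where it acetylates histones and other proteins. H3K4me3, trimethylated lysine 4 of histone H3, marks the promoters of active genes. Enhancers, which can lie far from the genes they control, often carry p300 and little H3K4me3, and in pigment cells factors such as MITF and SOX10 bind many of them. p300 bound away from H3K4me3 is therefore widely used to look for candidate enhancers, although its presence alone does not show that a region is active. The labelled cell line was checked against marker genes in the H3K4me3 list. Of 8 pigment cell markers, 7 had H3K4me3 within 1 kb of an annotated end, against 50.5% of all protein-coding genes, and 8 had it in the gene or within 1 kb. Of 83 markers of epithelial, myeloid, lymphocyte, stromal, hepatocyte, muscle and neural cells, 15 (18.1%) had it at an end. By cell type this went from 0 of 12 epithelial markers to 5 of 12 neural markers (41.7%), so the check separates neural markers least.

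Sequence could be read for 6 of the 419 peaks, which overlapped a RefSeq window around the start of a long noncoding RNA. Of these, 5 covered the start itself, and for B230206H07Rik the start lay outside the peak and the overlap was 42 bases, not shown. The following 5 stretches are the overlap of each peak with the 300-base window around that start, on the strand of the gene and 5′ to 3′, from RefSeq for GRCm38.p6. They are shown because they are peak sequence itself. Capitals mark every match to a motif, on either strand. For Gm39215 the stretch is chr8:86826181-86826480 on the minus strand, for Gm51656 chr9:96463775-96464053 on the plus strand and for Gm39473 chr12:74825050-74825321 on the plus strand. For Gm30158 it is chr11:111512408-111512608 and for Gm12092 chr11:29645548-29645719, both on the minus strand.
Gm39215: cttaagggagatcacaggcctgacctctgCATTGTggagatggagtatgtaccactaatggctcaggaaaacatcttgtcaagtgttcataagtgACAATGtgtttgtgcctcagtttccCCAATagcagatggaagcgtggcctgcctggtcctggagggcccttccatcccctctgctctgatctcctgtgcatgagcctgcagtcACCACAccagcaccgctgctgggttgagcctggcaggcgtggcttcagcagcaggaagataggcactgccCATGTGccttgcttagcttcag
Gm51656: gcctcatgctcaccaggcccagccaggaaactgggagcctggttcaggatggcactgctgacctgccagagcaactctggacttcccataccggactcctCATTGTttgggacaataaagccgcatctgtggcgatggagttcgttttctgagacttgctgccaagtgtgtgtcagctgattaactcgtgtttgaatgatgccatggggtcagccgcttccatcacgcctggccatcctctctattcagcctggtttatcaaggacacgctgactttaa
Gm39473: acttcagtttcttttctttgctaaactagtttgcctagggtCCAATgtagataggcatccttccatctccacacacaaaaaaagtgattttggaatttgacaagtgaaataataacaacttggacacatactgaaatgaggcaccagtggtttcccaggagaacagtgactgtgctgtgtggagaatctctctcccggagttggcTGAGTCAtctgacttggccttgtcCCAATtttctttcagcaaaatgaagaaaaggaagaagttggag
Gm30158: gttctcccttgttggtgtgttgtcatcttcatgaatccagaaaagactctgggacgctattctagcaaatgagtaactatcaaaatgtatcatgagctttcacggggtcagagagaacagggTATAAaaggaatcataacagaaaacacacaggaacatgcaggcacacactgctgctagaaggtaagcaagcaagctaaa
Gm12092: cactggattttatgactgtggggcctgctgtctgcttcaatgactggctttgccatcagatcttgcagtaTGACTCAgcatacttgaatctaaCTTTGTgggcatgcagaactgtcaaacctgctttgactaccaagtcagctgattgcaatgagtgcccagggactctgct

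The motifs searched on both strands were TGANTCA of AP-1, CACGTG and CATGTG of MITF and other E-box factors, ACAATG and ACAAAG of SOX factors, GGAATG of TEAD, CCGGAA of ETS, TGTGGT of RUNX, GCCNNNGGC of TFAP2, TGACGTCA of CREB, GGGCGG of SP and KLF factors, CCAAT of NF-Y and TATAA. None of these letter strings contains another. The peak at Gm39215 held CATGTG, which 14.2% of all 32851 RefSeq start windows of 300 bases hold, and ACAATG, which 12.6% hold. It also held TGTGGT, found in 16.8% of windows, and CCAAT, found in 37.4%. The peaks at Gm39473 and Gm12092 each held TGANTCA, found in 7.81% of windows. The Gm39473 stretch also held CCAAT at 2 places, and the Gm12092 peak also held ACAAAG, found in 18.7%. The Gm51656 stretch held ACAATG alone and the Gm30158 stretch TATAA alone, the latter found in 24.9% of windows. Among the 11588 start windows of long noncoding RNAs, 18.96% held CATGTG, 15.4% ACAATG, 20.05% TGTGGT and 35.97% CCAAT. For TGANTCA the share was 9.31%, for ACAAAG 22.2% and for TATAA 30.4%. All of these shares but that of CCAAT were higher than over all windows. CG dinucleotides, the sites of DNA methylation, numbered 3 in Gm39215, 8 in Gm51656, 1 in Gm39473, 2 in Gm30158 and 0 in Gm12092. The median start window held 7, and the median window of a long noncoding RNA held 4. Some stretches are shorter than 300 bases, which lowers the chance of a match, and a match is no evidence of binding.

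The peaks over these 5 starts were mostly weak by −log10 q. The peak at Gm39215 had a fold enrichment of 5.81, a ratio of summit to background given by the authors, at Gm51656 3.74, at Gm39473 5.33, at Gm30158 6.21 and at Gm12092 5.01. Their −log10 q values were 9.74, 18.1, 8.11, 9.70 and 8.81 in that order, and all but that of Gm51656 lay below 9.86, the lower quartile of the 419 peaks. Covering an annotated start was rare among the intergenic peaks without H3K4me3, at 5 of 419 (1.19%, 0.389 to 2.76%). It was found for 73 of 1358 intergenic p300 peaks with H3K4me3 (5.38%, 4.24 to 6.71%), an interval that does not overlap the first. Since the selection keeps intergenic peaks away from protein-coding starts, genic peaks, in or within 1 kb of a protein-coding gene, are given for starts of long noncoding RNAs alone. The shares were 0.190% (0.00482 to 1.06%) for genic peaks without H3K4me3, which is 1 of 525, and 4.04% (3.46 to 4.68%) with it. The interval of the 419 peaks overlaps the former and not the latter. H3K4me3 marks promoters and was used in the selection, so these differences over starts are not independent of it. Intergenic peaks without and with H3K4me3 also differed in median width, at 533 and 698 bp, and the part of width was not tested. The starts counted were those of the RefSeq windows.

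The 419 peaks were the smallest of 4 classes. Intergenic peaks with H3K4me3 made up 20.9% of the list, genic peaks without it 8.06% and genic peaks with it 64.6%. Over both positions, 944 p300 peaks (14.5%) shared no base with H3K4me3, a share that the selection used. The 3 selected peaks nearest to H3K4me3, nearest to Kcnj5, Eps8l2 and Tpt1, lay 4, 24 and 47 bp from it with folds of 5.94, 3.67 and 3.91. The 3 left out with the least overlap, near Eapp, Wdr5 and Abcd3, shared 9, 31 and 34 bases with folds of 4.13, 4.87 and 6.20. At the gene limit the selected peaks beyond Tyrp1, Olfr983 and Ugp2 lay 1020, 1041 and 1104 bp away with folds of 4.60, 10.0 and 4.00. Those left out at Dse, Gm42048 and Epb41 lay 971, 857 and 853 bp away with folds of 5.27, 8.87 and 4.96.

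The intergenic peaks without H3K4me3 were narrow, and their summits held few reads over a low background. Their median width was 533 bp (quartiles 421 and 744, range 342 to 1896), against 640.0 bp for all p300 peaks and 698 bp for intergenic peaks with H3K4me3. Genic peaks without H3K4me3 had a median of 576 bp. Whole numbers of reads at the summit, recovered from the deposited fold and −log10 p, had a median of 33 (quartiles 24 and 48), against 39 for all p300 peaks, 44 for intergenic peaks with H3K4me3 and 37 for genic peaks without it. The recovered background at the summit had a median of 4.80 reads, against 5.97, 6.64 and 5.43 in the same order.

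The fold enrichment of the 419 peaks was close to that of the others. Its median was 5.93 (quartiles 5.05 and 6.85, range 2.20 to 12.5), against 5.76 for all p300 peaks, 5.90 for intergenic peaks with H3K4me3 and 5.67 for genic peaks without it. The −log10 q, which also depends on the number of reads, was lower, with a median of 13.7 (quartiles 9.86 and 20.5) against 15.6 for all, 17.2 for intergenic peaks with H3K4me3 and 14.6 for genic peaks without it. Very strong peaks were few. A −log10 q of 50 or more was found for 16 of 419 (3.82%), against 7.59% of all p300 peaks and 12.2% of intergenic peaks with H3K4me3, and at least 100 summit reads for 22 (5.25%) against 8.98% of all. These are differences between peaks of 1 library, and depth in other libraries is unknown.

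**Figure D1:**
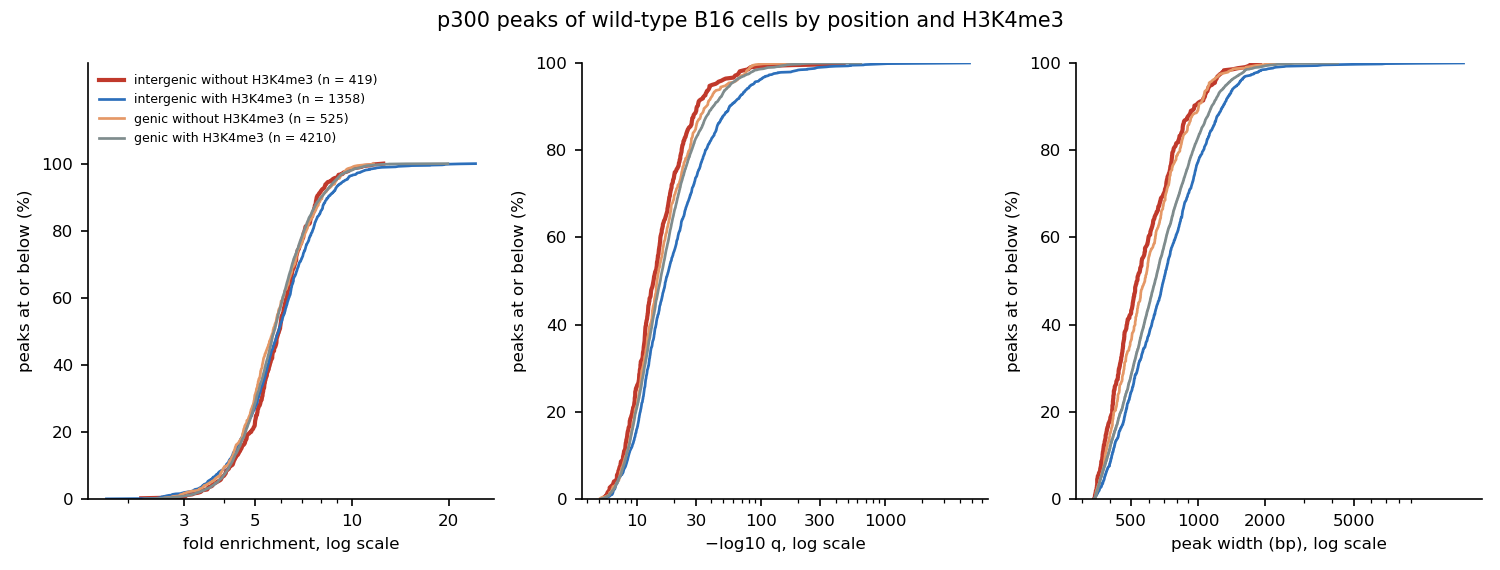
Cumulative share of p300 peaks (vertical axis, %) by fold enrichment, −log10 q and width in bp (horizontal axes, log scale) for the 4 classes of peaks. The curves of fold lie close together, while intergenic peaks without H3K4me3 lie to the left in −log10 q and width, with medians of 13.7 and 533 bp.

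The strongest of the 419 peaks lay beside the Prl2c genes, a cluster of prolactin-family hormone genes best known from the mouse placenta. The peak from 13025366 to 13026613 on chromosome 13, 1248 bp wide and 19973 bp from Prl2c2, had a fold of 11.7, a −log10 q of 471 and 699 summit reads over a background of 58.9. The peak from 13168427 to 13169626, 13077 bp from Prl2c5, had a fold of 12.5, a −log10 q of 459 and 655 summit reads over 51.4. Another peak by this family, from 12813995 to 12814371 and 13902 bp from Prl2c3, had a fold of 7.85 and a −log10 q of 30.6 with 57 reads over 6.39. The nearest H3K4me3 peaks were 354129, 211116 and 147953 bp from these 3 peaks. The first pair thus combined the highest summit counts with the highest backgrounds among the 419. Genes of this family are near copies of each other, and the handling of reads that match several copies is unknown, so their values are uncertain.

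Of the next 8 peaks by −log10 q, 6 lay within 5 kb of a protein-coding gene, against 67 of all 419 (15.99%). Beside Fem1a, a substrate receptor of ubiquitin ligases, the peak had a fold of 8.05 and a −log10 q of 179 (chromosome 17, 56265967 to 56266782), 2359 bp from the gene. Beside Gstp2, a glutathione transferase, it had a fold of 6.70 and a −log10 q of 104 (chromosome 19, 4045649 to 4046722). Beside Lgals3, which encodes the lectin galectin-3, the values were 7.12 and 83.0, and beside Pgd, an enzyme of the pentose phosphate pathway, 5.61 and 80.6. The peak nearest to Tmtc4, a mannosyltransferase of the endoplasmic reticulum, lay 73647 bp away, with a fold of 11.4 and a −log10 q of 79.8. Peaks near Slc22a12, a urate transporter, Gtf3c6, a subunit of the RNA polymerase III factor TFIIIC, and Slc28a1, a nucleoside transporter, had folds of 6.01, 5.68 and 10.7. The last peak lay 11947 bp from Slc28a1, and the Gtf3c6 peak, 1150 bp from its gene, was the widest of the 419 at 1896 bp. Other wide peaks lay by the small GTPase gene Arl4d (1708 bp), by Igdcc3, an immunoglobulin superfamily gene (1678 bp), and by the melanosome transport gene Mreg (1627 bp), with folds of 3.21, 4.31 and 3.32. Of these 10 strongest peaks, 3 lay more than 50 kb from H3K4me3, the pair by Prl2c2 and Prl2c5 and the one by Tmtc4. Of all 419 peaks, 289 (69.0%) lay within that distance, so the 10 were close to the whole class in this.

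**Figure D2:**
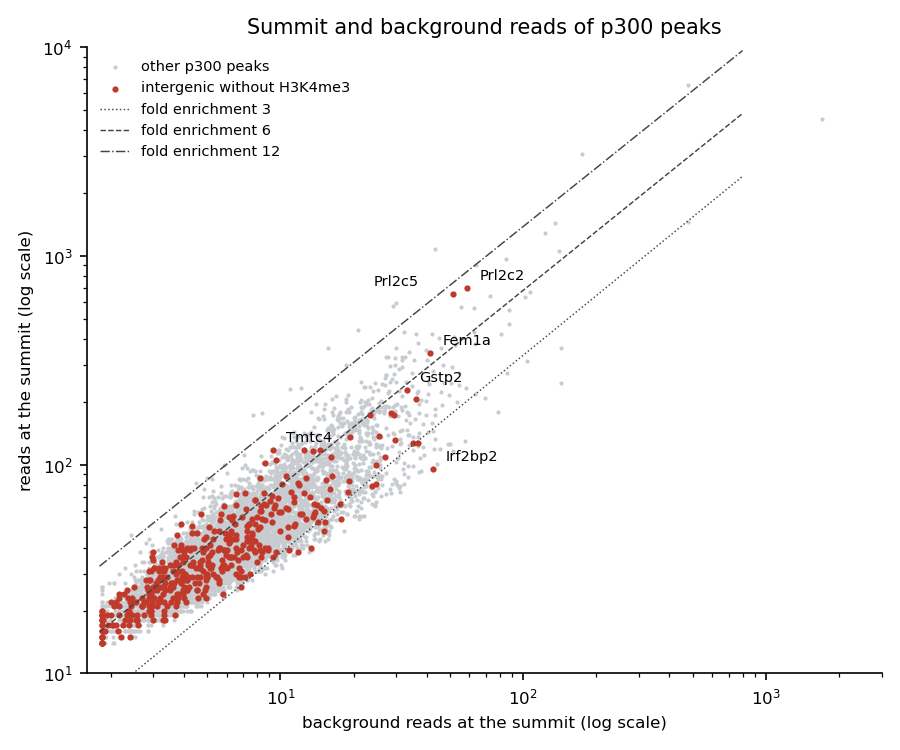
Reads at the summit (vertical axis, log scale) against background reads at the summit (horizontal axis, log scale) for every p300 peak, with intergenic peaks without H3K4me3 in red, the others in grey, and lines at folds of 3, 6 and 12. The peaks by Prl2c2 and Prl2c5 have 699 and 655 reads, the most among the red points, the one by Irf2bp2 lies lowest in fold at 2.20, and most red points lie at the low end of both axes.

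Other strong peaks lay near Yap1, Cdh19 and Zeb1. The peak 23933 bp from Yap1, a transcriptional co-activator of the Hippo pathway, had a fold of 9.64 and a −log10 q of 44.7. The peak 80424 bp from Cdh19, a cadherin of Schwann cell precursors, had a fold of 10.8 and a −log10 q of 36.1. Near Zeb1, a repressor that drives epithelial cells towards a mesenchymal state, a peak 1744 bp wide lay 13110 bp from the gene with a fold of 9.08 and a −log10 q of 43.3. In these peaks the backgrounds were 6.58, 3.89 and 7.15 reads.

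Distance from genes and from H3K4me3 was large but varied. The median peak lay 27052 bp from the nearest protein-coding gene (quartiles 8738 and 91963.5 bp, range 1020 to 1679833), against 22311 bp for intergenic peaks with H3K4me3. More than 100 kb from a gene lay 100 peaks (23.9%, 19.9 to 28.2%), against 14.7% (12.8 to 16.7%) of intergenic peaks with H3K4me3, and more than 500 kb away 14 (3.34%) against 0.957%. The intervals of the first pair do not overlap. The gaps between genes in which they lay were wider as well, with medians of 136502 and 103324 bp. To the nearest H3K4me3 peak the median was 20450 bp (quartiles 6672.5 and 76048.5), and 13397 bp for genic peaks without H3K4me3. Within 1 kb of H3K4me3 were 24 peaks (5.73%), within 10 kb 145 (34.6%), and over 100 kb away 91 (21.7%), against 9.71% of genic peaks without H3K4me3. The peaks farthest from H3K4me3 were those nearest to Gm3095 at 3850525 bp, to H2ab1 on chromosome X at 2837979 bp and to Pcdh20 at 2040975 bp, with folds of 7.71, 7.05 and 5.50.

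Fold was higher, and both summit and background reads were lower, the farther a peak lay from H3K4me3. The 24 peaks within 1 kb had a median fold of 4.59 with 54 summit reads over a background of 11.3. The 91 peaks over 100 kb away had a median fold of 6.70 with 26 summit reads over 3.03. Across the 419 peaks, distance to H3K4me3 had a Spearman correlation of 0.49 with fold, -0.61 with background, -0.43 with summit reads and -0.11 with −log10 q. These are correlations across peaks of 1 library, which are not replicates, and fold, background and summit reads share the same values. Since fold is the ratio to background, the part that background takes in the pattern of fold was not tested. The same order appeared with distance from genes, whose correlation was 0.37 with fold and -0.50 with background.

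**Figure D3:**
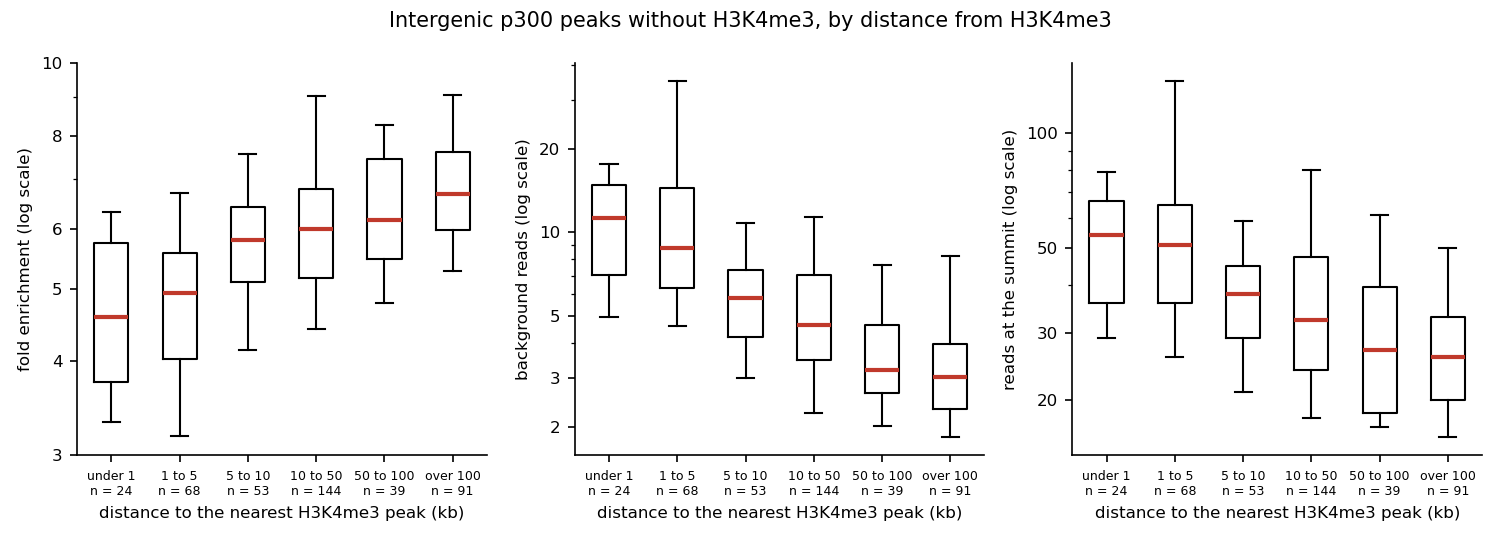
Fold enrichment, background reads and summit reads (vertical axes, log scale) of the 419 intergenic peaks without H3K4me3 in 6 classes of distance to the nearest H3K4me3 peak (horizontal axis, kb), as boxes of the quartiles with medians in red and whiskers to percentiles 5 and 95. The median fold goes from 4.59 to 6.70 and the median background from 11.3 to 3.03 reads from the nearest class to the farthest.

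Peaks of p300 close to another p300 peak were no more common here than in the whole list. Another p300 peak lay within 10 kb of 75 of the 419 (17.9%, 14.3 to 21.9%), against 19.2% of all p300 peaks, 24.9% of intergenic peaks with H3K4me3 and 23.2% of genic peaks without it. For 33 of these 75 (44.0%) the nearest neighbour was an intergenic peak with H3K4me3, against 26.7% of the 1250 such peaks in the whole list. It was a genic peak with H3K4me3 for 22 (29.3%), against 57.1%, and one of the 419 for 20 (26.7%), against 6.08%. A genic peak without H3K4me3 was the nearest for 0 of the 75, against 10.1%. For the 338 intergenic peaks with H3K4me3 that had such a neighbour, it was an intergenic peak with H3K4me3 for 61.5%. It was a genic peak with H3K4me3 for 27.2%, one of the 419 for 10.06% and a genic peak without H3K4me3 for 1.18%. Low shares of genic neighbours were thus common to both intergenic classes, which the selection keeps more than 1 kb from genes. Within 50 kb, another p300 peak was found for 46.1%, against 54.6% of all. Small groups were found as well. Of the 419, 56 (13.4%) had another of them within 100 kb, and 4 stretches of 100 kb held 3. These lay by Eapp and Snx6 on chromosome 12, by Trpc7 on chromosome 13, by Lgals3 on chromosome 14 and by Tyrp1 on chromosome 4. The outer summits of the 3 peaks by Lgals3 were 20345 bp apart, and the peaks had −log10 q values of 83.0, 60.4 and 19.6. The 3 by Trpc7, which encodes a cation channel, lay 102694, 121683 and 135447 bp from the gene with folds of 5.50, 6.03 and 6.66. In all 393 genes were nearest to a peak, 21 of them to more than 1, and Klf6, Lgals3, Marcks, Trpc7 and Tyrp1 to 3 each.

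The nearest protein-coding gene had H3K4me3 within 1 kb of an end for 252 of 419 peaks (60.1%, 55.3 to 64.9%). Over all protein-coding genes the share was 50.5%, as above, and over all p300 peaks it was higher, at 79.0%. The share was 69.4% (66.9 to 71.9%) beside intergenic peaks with H3K4me3, an interval that does not overlap that of the 419, and 72.8% for genic peaks without it. p300 lay at an end of the nearest gene for 84 (20.05%), and beside intergenic peaks with H3K4me3 for 24.2%. Over all p300 peaks this was 49.7%, where a genic peak can itself lie at that end. Where the strand of the nearest gene was listed, 182 of 343 peaks lay on its upstream side (53.1%, 47.6 to 58.4%), an interval that includes equal numbers on each side.

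Noncoding genes lay under part of these peaks. An annotated gene that does not encode a protein was overlapped by 80 of 419 (19.1%, 15.4 to 23.2%), against 29.2% (26.8 to 31.7%) of intergenic peaks with H3K4me3. The share was 14.7% of all p300 peaks, 5.90% of genic peaks without H3K4me3 and 10.7% of genic peaks with it. By kind, 70 overlapped a long noncoding RNA and 6 a pseudogene, and the few others a small RNA gene or an immune receptor locus. The strongest of them by −log10 q lay in Gm33906, the peak nearest to Tmtc4 described above, and in Gm41147, where fold was 7.66 and −log10 q 60.4, near Lgals3. Lncpint, a long noncoding RNA that p53 induces in mouse cells, held a peak of fold 5.16 and −log10 q 31.6, 164106 bp from Klf14.

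The share of p300 peaks that fell in this class, 6.43% over all chromosomes used, varied between chromosomes. Chromosome 13 had 32 of 248 (12.9%, 8.996 to 17.7%) and chromosome 14 had 27 of 215 (12.6%, 8.44 to 17.7%). Chromosome 11 had 26 of 593 (4.38%, 2.88 to 6.36%) and chromosome 17 had 15 of 337 (4.45%, 2.51 to 7.24%). Chromosome 2 held the largest number, 36, and chromosome X held 4 of 64 (6.25%). The intervals of chromosomes 13 and 14 do not overlap those of 11 and 17. These chromosomes were picked for their high and low shares, and the intervals do not allow for that choice. How the spacing of genes on a chromosome bears on these shares was not tested.

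Genes near these peaks were counted with lists for the tissue and for other cell types. Of 21887 protein-coding genes, 577 (2.64%) had one of the 419 peaks within 50 kb of the gene, and 9682 (44.2%) had any p300 peak within that distance. Pigment cell genes, 5 of 26 (19.2%, 6.55 to 39.4%), and transcription factors of the neural crest, 4 of 21 (19.05%, 5.45 to 41.9%), had the highest shares of the 21 lists. Any p300 peak lay within 50 kb of 23 of the 26 pigment cell genes and of 10 of the 21 neural crest factors. Over the 21 lists this share ranged from 8.33% for hepatocyte markers to 88.5% for pigment cell genes. It was 80.0% for MAPK signalling and 79.2% for AP-1 and the immediate early response. Genes of AP-1 and the immediate early response had 3 of 24 (12.5%) and cell cycle genes 3 of 27 (11.1%). No gene of the lists for MAPK signalling (20 genes), axon guidance (32), Wnt signalling (24) and excision repair with demethylation (24) was near one. The lists for the other cell types had 3 of 83 (3.61%), near the 2.64% of all genes.

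**Figure D4:**
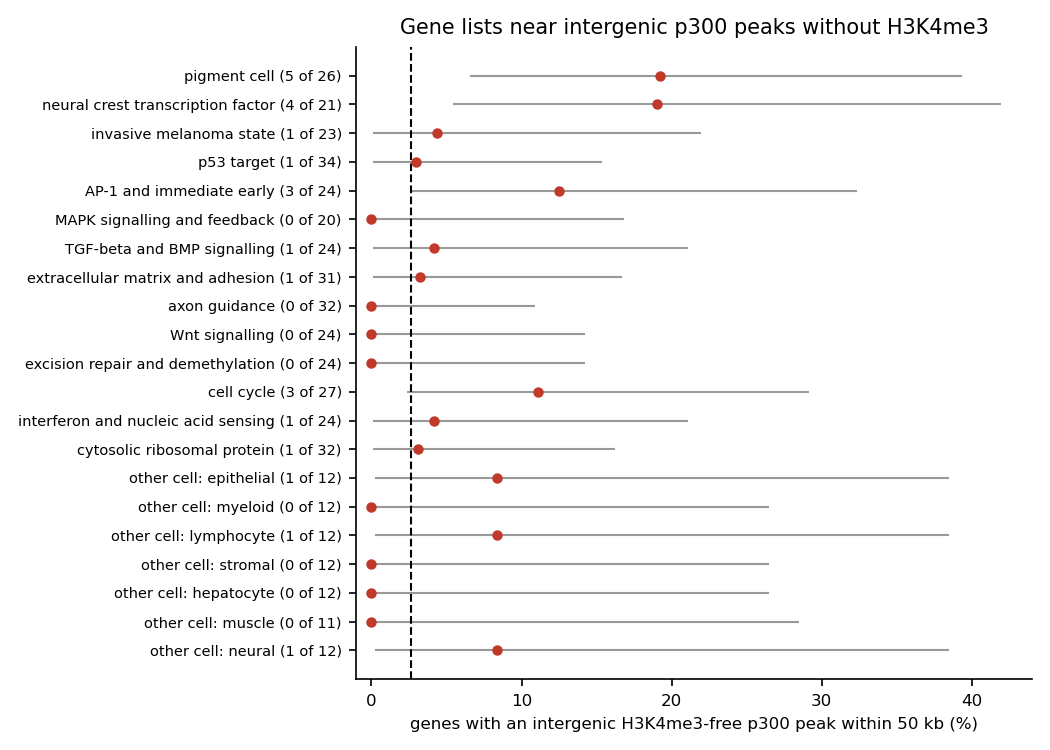
Percent of genes in each of 21 lists that have an intergenic p300 peak without H3K4me3 within 50 kb (horizontal axis), with exact 95% intervals as bars and the 2.64% of all protein-coding genes as a dashed line. The pigment cell and neural crest lists lie highest at 19.2% and 19.05%, with wide intervals.

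The pigment cell genes near such peaks were Tyrp1, Dct, Sox10, Oca2 and Bcl2a1b. Tyrp1 and Dct encode melanin synthesis enzymes, Oca2 a melanosome channel protein and Sox10 a transcription factor of the lineage. Bcl2a1b encodes a relative of the BCL2 survival proteins. Tyrp1 had 3 peaks, 45339 and 36207 bp upstream with folds of 6.27 and 9.34 and 1020 bp beyond the other end with a fold of 4.60. Their −log10 q values were 9.81, 38.6 and 13.1. Between the upstream pair and the gene lay an intergenic p300 peak with H3K4me3, of fold 8.80. The Dct peak lay 18079 bp upstream with a fold of 5.60 and 19 summit reads, and the Oca2 peak 2868 bp upstream with 5.08 and 36 reads. The Sox10 peak lay 30571 bp away with a fold of 3.55 and 65 reads, and only 647 bp from H3K4me3. The Bcl2a1b peak lay 43030 bp downstream with 6.28 and 38 reads, and is nearer to Mthfs, a folate enzyme gene.

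**Figure D5:**
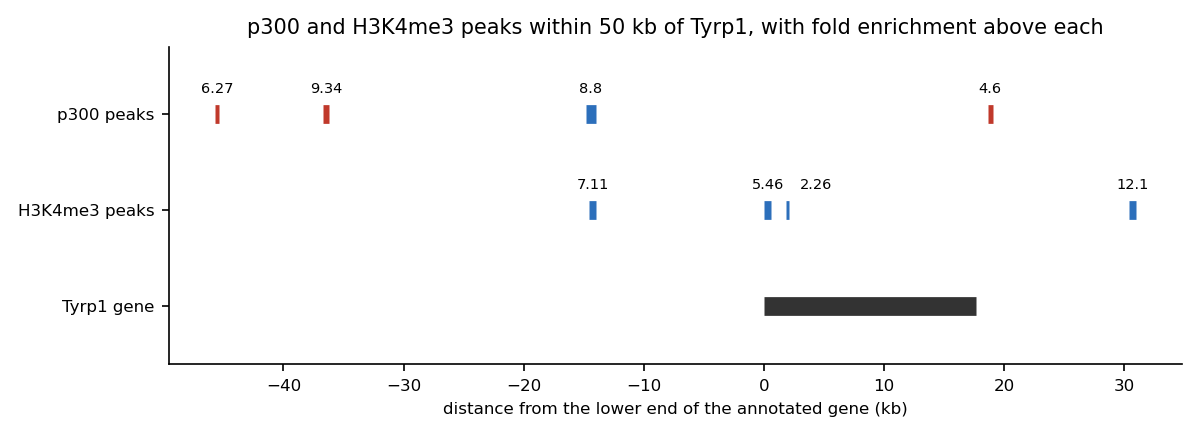
Peaks of p300 and of H3K4me3 within 50 kb of Tyrp1 by distance from the lower end of the annotated gene (horizontal axis, kb), with p300 peaks without H3K4me3 in red, other peaks in blue and the fold enrichment above each. A pair of red peaks lies upstream at folds of 6.27 and 9.34 and another, of fold 4.60, lies beyond the far end of the gene.

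The start windows of Tyrp1 (chr4:80833963-80834262, plus strand) and Dct (chr14:118052197-118052496, minus strand) are shown as the start windows, of the 4 read for pigment genes near such a peak, that overlapped an H3K4me3 peak. They were chosen after their values were seen. Capitals mark CATGTG, the core of the M-box that MITF binds in pigment gene promoters, on either strand. The sequences are RefSeq's for GRCm38.p6.
Tyrp1: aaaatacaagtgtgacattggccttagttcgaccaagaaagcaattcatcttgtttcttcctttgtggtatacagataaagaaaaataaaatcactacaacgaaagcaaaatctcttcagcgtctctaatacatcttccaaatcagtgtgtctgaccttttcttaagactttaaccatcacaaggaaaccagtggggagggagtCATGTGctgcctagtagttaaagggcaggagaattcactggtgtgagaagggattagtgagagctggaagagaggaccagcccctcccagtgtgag
Dct: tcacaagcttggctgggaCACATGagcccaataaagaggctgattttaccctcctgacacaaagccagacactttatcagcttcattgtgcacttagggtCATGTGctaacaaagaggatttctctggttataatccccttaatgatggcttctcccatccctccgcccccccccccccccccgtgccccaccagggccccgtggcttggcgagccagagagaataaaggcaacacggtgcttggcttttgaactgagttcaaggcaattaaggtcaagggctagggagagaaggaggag

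The Tyrp1 window held 1 match to CATGTG and the Dct window held 2, against 14.2% of all start windows with at least 1. An H3K4me3 peak overlapped both windows, of fold 5.46 at Tyrp1 and 2.15 at Dct, and a p300 peak overlapped that of Dct. The Oca2 window held 1 match and overlapped neither kind of peak, while the Bcl2a1b window held none and overlapped neither. The sequence of the intergenic peaks beside these genes was not read here.

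The neural crest factors near such a peak were Zeb1, Zeb2, Foxd3 and Id3. Zeb2, a repressor related to Zeb1, had one 13794 bp downstream with a fold of 5.01 and 23 summit reads. Foxd3, a factor of early neural crest, had one 43544 bp upstream with 6.50 and 22 reads. Id3, which blocks DNA binding of basic helix-loop-helix factors, had one 2753 bp upstream with a fold of 3.55, 127 reads and a background of 35.1. The same peak lay within 50 kb of E2f2, a cell cycle factor gene, so both lists count it. Of these 4 genes only Id3 had H3K4me3 within 1 kb of an end. Among genes of AP-1 and the immediate early response, Klf6, a zinc finger factor, had a peak 23596 bp upstream with a fold of 8.40. Fosl2, a subunit of AP-1, had one 39482 bp downstream with 5.01, which was nearer to Plb1. Ier5, an immediate early gene, had one 22101 bp downstream with 4.25.

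Single genes of other lists lay near a peak. Of the genes in this paragraph, only Tgfbr3 and Cldn4 were the protein-coding gene nearest to their peak. The Ddb2 peak, for example, was nearer to Pacsin3, the Oas1a peak to Rph3a and the Mcm2 peak to Tpra1. Of the p53 targets this was Ddb2, which recognises ultraviolet damage, 10744 bp away with a fold of 5.13, 1 of 34 (2.94%). For TGF-beta and BMP signalling it was the co-receptor gene Tgfbr3 (18594 bp, fold 7.52), for matrix and adhesion the integrin gene Itga5 (26618 bp, 6.53) and for interferon the gene of the synthetase Oas1a (30536 bp, 6.70). In the cell cycle list the clamp gene Pcna (36700 bp, fold 6.28) and the helicase gene Mcm2 (16974 bp, 4.34) joined E2f2. A peak of fold 4.64 lay near both the ribosomal protein gene Rps19 and the B cell gene Cd79a, and counts in both lists. The epithelial gene Cldn4 had one 12249 bp away with a fold of 6.75, and the neuronal gene Rbfox3 one 32348 bp away with 6.62. The invasive melanoma list counted Fosl2 alone, 1 of 23 (4.35%).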

How the data were processed

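The peak lists of 2 libraries were used, H3K4me3 and p300 in unedited B16 cells, made by CUT&Tag. Reads were placed on mm10, with Bowtie2 2.2.5, deepTools, Picard 2.22.4 and Trim Galore among the tools, per the submitters' processing notes. Not given in the sources used here are the peak caller, the control library, the read filters and any pooling. Per the labels, each reaction used 1 µg of antibody, 18 PCR cycles and paired reads of 150 bp. The authors deposited a start, end and summit for each peak, a score, a fold enrichment read as a ratio of summit to background, a −log10 p and a −log10 q, with no read totals, so depth is unknown. These values were used only to describe and rank peaks.

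A whole number of summit reads and its background were recovered from the fold, as (reads + 1) over (background + 1), and the Poisson −log10 p, within 0.002 for 6510 of 6512 p300 peaks. The distance and recovery steps were tested on simulated data. Genes were 21887 protein-coding RefSeq genes of GRCm38.p6, whose chromosomes are those of mm10, and their ends were taken within 1 kb. Overlap required 1 shared base. Intervals are exact 95% binomial and cover counting error only, and neighbouring peaks and genes share sequence and are not independent. Genes were matched to a peak within 50 kb. The 21 lists held 454 symbols, of which 449 matched. Named were the 10 peaks of highest −log10 q, the 5 widest, the 3 farthest from H3K4me3, the 3 nearest to each limit, up to 4 genes of each list and all pigment genes near a peak; Yap1, Cdh19, Lncpint and Trpc7 were named after their values were seen. The peaks, lists and rules were chosen with earlier results of these data known. Alternatives are given in the closing section. Peaks on scaffolds and the mitochondrial chromosome were left out. Python 3.11.15, numpy 2.4.6, pandas 2.3.3, scipy 1.17.1 and matplotlib 3.10.9 were used.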

Additional observations from a re-analysis of the deposited data

Results flagged for a closer look

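Signal was also found outside the chromosomes used. Of 17 p300 peaks on scaffolds and the mitochondrial chromosome, 4 shared no base with H3K4me3. No control library is known against which this number could be set. All 4 lay on scaffolds, since each of the 3 mitochondrial p300 peaks overlapped H3K4me3.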

How the results depend on the processing

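Alternative settings moved the main measures by less than their interval in 50 cases and by more in 31, which follow. Stronger H3K4me3 or p300 peaks are those at or above the median of their list. The share of p300 peaks in the class, 6.43%, was 5.41% beyond 5 kb from genes, 4.64% beyond 10 kb, 4.88% outside all annotated genes, 7.85% with the summit alone outside H3K4me3, 15.8% with stronger H3K4me3 peaks alone and 5.16% for stronger p300 peaks by −log10 q. The median fold, 5.93, was 6.16 beyond 10 kb and 6.72 for stronger p300 peaks by −log10 q and by fold. The median −log10 q, 13.7, was 23.1 and 17.2 in the same order. The rise in fold for peaks chosen by fold, and in −log10 q for those chosen by −log10 q, was by construction. The median distance to H3K4me3, 20450 bp, was 27674 bp beyond 5 kb, 31608 bp beyond 10 kb, 11782 bp by summit, 32906 bp with stronger H3K4me3 peaks and 32879 bp for stronger p300 peaks by fold. The share with another p300 peak within 10 kb, 17.9%, was 13.9% beyond 10 kb from genes, 6.55% for stronger p300 peaks by fold, 7.64% within 5 kb and 28.4% within 20 kb. The share of genes near a peak, 2.64%, was 2.98% outside the gene span itself, 1.67% beyond 5 kb, 1.05% beyond 10 kb, 2.09% outside all annotated genes, 3.29% by summit, 6.26% with stronger H3K4me3 peaks, 1.23% and 1.20% for stronger p300 peaks by −log10 q and fold, and 1.31% and 4.99% with windows of 20 and 100 kb. A wider limit for neighbours or a wider gene window can only raise its share, and a narrower one can only lower it. With stronger H3K4me3 peaks alone, the share of p300 peaks in the class and the share of genes near a peak can only rise. With stronger p300 peaks alone or a larger distance from genes, the share of genes near a peak can only fall. The overlap with noncoding genes was 0 outside all annotated genes, by construction.

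Without the pair of peaks by Prl2c2 and Prl2c5, a choice made after seeing the data, no main measure moved beyond its interval. The share of p300 peaks in the class was then 6.41%, the median fold 5.91 and the median −log10 q 13.65. With 417 peaks kept, such medians and shares stay nearly the same whatever the values of the pair. This setting is therefore no check on the values of the pair. The count of 5 pigment genes was 2 for stronger p300 peaks by either measure, 3 with a window of 20 kb and 8 with stronger H3K4me3 peaks. Over all settings the neural crest count of 4 ranged from 2 to 6, and the AP-1 and cell cycle counts of 3 each ranged from 0 to 5. The p53 target count of 1 ranged from 0 to 7, with 6 for a window of 100 kb. The counts of 0 for MAPK signalling and excision repair were 3 and 1 with stronger H3K4me3 peaks. Counting stronger H3K4me3 peaks alone can only add peaks to the class, which grew to 1029, so gene counts can only stay or rise. Counting stronger p300 peaks alone can only remove peaks, to 168 by −log10 q and 229 by fold, so gene counts can only stay or fall. Nothing else about these moves was tested. The size of the class depends on which H3K4me3 peaks are counted. Peaks without H3K4me3 share no base with a called peak, and H3K4me3 signal below the authors' calls was not analysed here. The motif search around summits was not run, since no genome was used here. No paired analysis was possible because each antibody had 1 library.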
